A study of Zea mays with 4 samples.

Results

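The copper miRNAs of maize (*Zea mays*, inbred line B73) were taken as the known miRNAs named zma-miR397, zma-miR398, zma-miR408 or zma-miR528. They comprised 7 names with 4 distinct mature sequences, out of 161 known names with 72 distinct sequences. Small RNA libraries came from mature pollen shaken from tassels (MP), pollen germinated for 30 min in liquid medium (GP), mature silks, the long styles and stigmas of maize, exposed by about 5 cm (MS), and pollinated silks (PS). PS was harvested 30 min after pollination with excess pollen and still held adhering grains and tubes, so pollen RNA and silk RNA cannot be told apart in it. All 4 tissues came from B73 plants of the same greenhouse, with 1 library per tissue and therefore no replicate check. Messenger RNA markers of pollen or silk were not measured, so the tissue labels were not checked against them. Every test reported here compares libraries, and intervals treat reads as independent counts, so they hold no spread between plants or libraries. Because PCR copies are not independent molecules, the intervals may be too narrow even for counting error.

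Plant miRNAs guide the cleavage or silencing of messenger RNAs to which they pair almost fully. In Arabidopsis, miR397, miR398 and miR408 accumulate when copper is scarce, through the transcription factor SPL7, and reduce copper proteins that the plant can spare. miR397 acts on laccases, which are copper oxidases of lignin synthesis, and miR398 acts on copper/zinc superoxide dismutases. miR408 acts on small blue copper proteins such as plantacyanin, which in Arabidopsis takes part in guiding pollen tubes through the pistil. miR528 is a miRNA of monocots that acts on laccases of lignin synthesis in maize.

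The 4 mature sequences are shown because each carries its own seed (bases 2 to 8 from the 5′ end, in capitals), written with T for U as deposited.
zma-miR397b: tCATTGAGcgcagcgttgatg
zma-miR398a and zma-miR398b: tGTGTTCTcaggtcgcccccg
zma-miR408 and zma-miR408b: cTGCACTGcctcttccctggc
zma-miR528a and zma-miR528b: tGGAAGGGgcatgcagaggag

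The paired names had the same sequence and the same counts, so the loci behind miR398a and miR398b, miR408 and miR408b, or miR528a and miR528b cannot be told apart. None of the 4 seeds occurred in another known sequence (0 in each case). Seeds found only once were not counted over all 72 sequences, so this cannot be called particular to the copper miRNAs. All 4 sequences were 21 nt long, as were 56 of the 72 known sequences (77.8%). miR408 began with C, a first base shared by 5 of the 72 (6.94%), whereas the other copper sequences began with T, like 54 of the 72 (75%). GC content was 52.4% in miR397b, 66.7% in miR398, 66.7% in miR408 and 61.9% in miR528, against a median of 52.4% and a range of 31.8% to 66.7% over the known sequences. Aligned without gaps, the copper sequences matched each other at 2 to 7 of 21 bases. Pairs of other known sequences were not aligned for comparison.

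The libraries held 3638941 (MP), 10575042 (GP), 5775303 (MS) and 5205129 (PS) clean reads. A level is given in TPM, reads per 1000000 clean reads, so that 1 read was worth 0.275 TPM in MP and 0.0946 TPM in GP, the deepest library, against 0.173 TPM in MS and 0.192 TPM in PS. A count of 0 allows up to 3 reads, or 0.824, 0.284, 0.519 and 0.576 TPM in the same order. Of the 72 known sequences, 38, 46, 57 and 62 had reads in MP, GP, MS and PS.

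miR408 was the abundant copper miRNA of silks and was low in pollen. Pollen held 7 reads in MP and 1 in GP, against 529 in MS and 837 in PS. The level in pollen was 1.92 TPM in MP (exact 95% interval 0.773 to 3.96) and 0.0946 TPM in GP (0.00239 to 0.527). In silk it was 91.6 TPM before pollination (84.0 to 99.7) and 161 TPM after it (150 to 172). None of these 4 intervals overlapped another, and the order was PS, MS, MP, GP. Among known sequences with reads in the same library, miR408 ranked 16th of 57 in MS, 15th of 62 in PS and 17th of 38 in MP. In GP its 1 read gave rank 35 of 46, shared by 12 sequences. Its rank in MP was thus close to those in silk, although its TPM was far lower. In whole tissues, fewer cells that hold a miRNA and less of it per cell cannot be told apart.

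miR398 was low in every library, and per clean read its levels in pollen and silk overlapped. Pollen held 2 reads in MP and 15 in GP, and silk held 11 in MS and 10 in PS. These reads gave 0.550 TPM in MP (0.0666 to 1.99) and 1.42 TPM in GP (0.794 to 2.34). Silk levels were 1.90 TPM in MS (0.951 to 3.41) and 1.92 TPM in PS (0.921 to 3.53), and all 4 intervals overlapped. Among known sequences with reads, miR398 ranked 29th of 38 in MP, 14th of 46 in GP, 40th of 57 in MS and 41st of 62 in PS, with ties in MP and GP.

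miR528 was low in pollen and highest in pollinated silks. Pollen held 3 reads in MP and 1 in GP, whereas silk held 12 in MS and 33 in PS. Its pollen levels were 0.824 TPM in MP (0.170 to 2.41) and 0.0946 TPM in GP (0.00239 to 0.527). In silk it reached 2.08 TPM before pollination (1.07 to 3.63) and 6.34 TPM after it (4.36 to 8.90). The PS interval lay above those of MS and MP, whereas those of MS and MP overlapped. miR397b was at the limit of detection, with 0 reads in MP, GP and MS and 1 read in PS (0.192 TPM, under the floor of 3 reads).

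**Figure D1:**
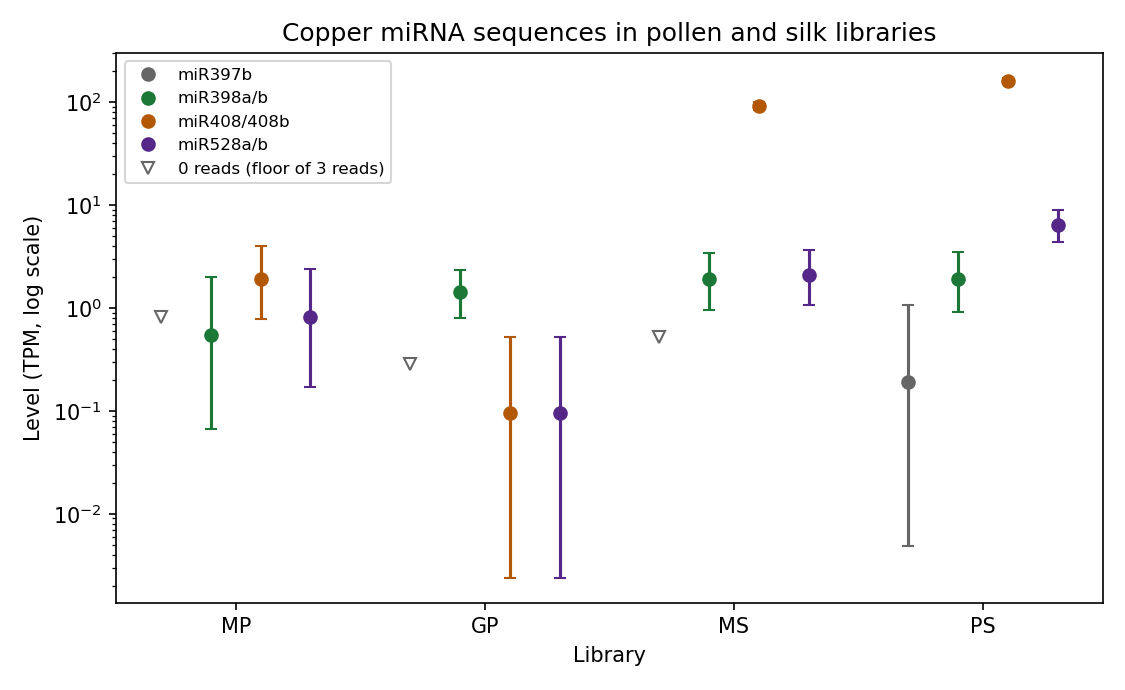
Level in TPM on a log axis of the 4 copper miRNA sequences in each library, with exact 95% intervals as bars and open triangles for 0 reads drawn at the floor of 3 reads. For miR408 the MS point (91.6 TPM) and the PS point (161 TPM) lie far above the MP point (1.92 TPM) and the GP point (0.0946 TPM), while the miR398 intervals overlap in all libraries.

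The copper miRNAs together had 12 reads in MP and 17 in GP, against 552 in MS and 881 in PS. They made up 0.0604% of known miRNA reads in MP (exact 95% interval 0.0312 to 0.106), 0.0385% in GP (0.0225 to 0.0617), 0.297% in MS (0.273 to 0.323) and 0.470% in PS (0.440 to 0.502). Within known miRNAs, then, the intervals of MS and PS lay above those of MP and GP. The make-up of these reads differed as well. miR408 supplied 95.8% of them in MS (93.8 to 97.3) and 95% in PS (93.4 to 96.3), but 58.3% in MP (27.7 to 84.8) and 5.88% in GP (0.149 to 28.7). In GP, miR398 supplied 88.2% (63.6 to 98.5).

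**Figure D2:**
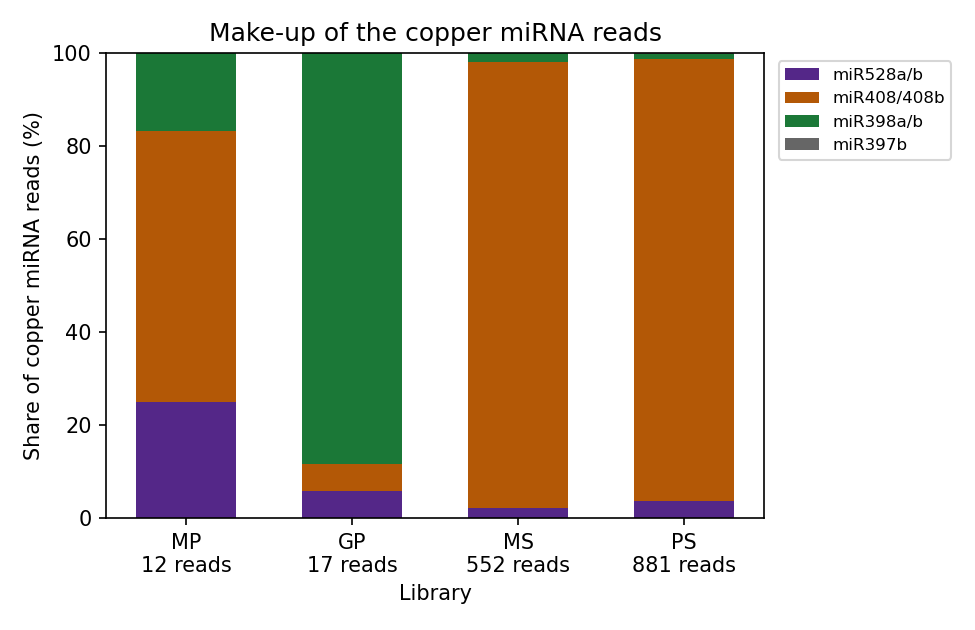
Share in percent of the copper miRNA reads of each library that came from each of the 4 sequences, as stacked bars from 0 to 100%, with the number of reads under each bar. miR408 makes up 95.8% of MS and 95% of PS, and miR398 makes up 88.2% of GP, which rests on 17 reads.

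The comparison of GP with MP asked which miRNAs change as pollen germinates. miR408 was lower in GP, where its 0.0946 TPM stood against 1.92 TPM in MP, a 20.3-fold difference (exact 95% interval 2.61 to 917) and a log2 ratio of -4.35 (-9.84 to -1.39). The 2-sided Fisher's exact test gave p = 0.000447 (Benjamini-Hochberg adjusted p = 0.00207 over the known sequences). miR398 had a log2 ratio of 1.37 (-0.74 to 4.54), which did not pass (Fisher's exact test, adjusted p = 0.490), and miR528, with 1 read against 3, was given no ratio (adjusted p = 0.138). Sequences past the limits had p under 0.01 and differed by more than 1.5 on the log2 scale. Of the copper sequences, 1 of 3 with reads was lower, against 13.7% of the 51 known sequences tested, and 0 of 3 was higher, against 3.92%. The median log2 ratio was -1.49 over the 2 copper sequences with a ratio and -0.80 over 34 known sequences. The miR408 call rests on 8 reads and was lost under TMM factors (log2 ratio -2.94) and median ratio factors (-3.22). A minimum of 10 reads in either library left miR408 out. Under TMM miR398 passed the limits as higher in GP instead (2.78, exact binomial test with the scaled totals, p = 0.00274).

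The comparison of PS with MS asked which miRNAs change in silks on pollination. miR528 was 3.05-fold higher in PS (1.54 to 6.49), at 6.34 TPM against 2.08 TPM, a log2 ratio of 1.61 (0.62 to 2.70, Fisher's exact test, p = 0.000501, adjusted p = 0.00127). miR408 was 1.76-fold higher (1.57 to 1.96), a log2 ratio of 0.81 (0.65 to 0.97), with a small p of 8.83e-25 (adjusted p = 4.48e-24) on a difference below the fold limit. miR398 was at the same level within counting error, with a log2 ratio of 0.01 (-1.38 to 1.39, Fisher's exact test, p = 1). Per clean read, MP held miR408 at 1.92 TPM and miR528 at 0.824 TPM, and GP held each at 0.0946 TPM. The part of adhering pollen in the PS values was not tested.

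Calls in silk required p under 0.01. A higher call also required a log2 ratio above 1.5 and more than 10 times as many reads in MS or PS as in MP or GP, and a lower call a log2 ratio below -2. By these limits 1 of 4 copper sequences was higher, miR528, against 9.09% of the 66 known sequences tested, and 0 of 4 was lower, against 6.06%. The median log2 ratio was 0.81 over 3 copper sequences and 0.37 over 52 known sequences. miR528 stood just inside the fold limit, and its log2 ratio of 1.30 to 1.45 under the 3 other scalings was outside it.

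Silk was compared with pollen as mature tissues (MS with MP), and pollinated silk with pollen germinated in medium (PS with GP). Between MS and MP, miR408 was 47.6-fold higher in silk (22.9 to 119), a log2 ratio of 5.57 (4.52 to 6.89, Fisher's exact test, p = 2.64e-100). miR398 had a log2 ratio of 1.79 (-0.40 to 5.01, adjusted p = 0.127) and miR528 of 1.33 (-0.56 to 3.80, adjusted p = 0.238), so neither passed Fisher's exact test. Under the limits used for pollen, 1 of 3 copper sequences was higher in MS, against 53.3% of the 60 known sequences tested, and 0 of 3 was lower, against 1.67%.

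Between PS and GP, miR408 was 1700.5-fold higher in silk (304 to 67245), a log2 ratio of 10.73 (8.25 to 16.04), with 837 reads against 1. miR528 was 67.0-fold higher (11.2 to 2727), a log2 ratio of 6.07 (3.49 to 11.41, Fisher's exact test, adjusted p = 6.34e-15). Its log2 ratio under TMM was 2.97, which did not pass (exact binomial test with the scaled totals, p = 0.0142). The log2 ratio of 2.96 under the total of known reads did not pass either (exact binomial test, p = 0.0140). That of 3.04 under median ratio did pass (exact binomial test, p = 0.00867). Per clean read, miR398 had a log2 ratio of 0.44 (-0.88 to 1.69, Fisher's exact test, p = 0.524). Here 2 of 4 copper sequences were higher, against 59.4% of the 69 known sequences tested, and 0 of 4 was lower, against 2.9%.

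Known sequences as a whole were higher in silk per clean read, with a median log2 ratio of 3.18 between MS and MP over 46 sequences and of 3.19 between PS and GP over 56. The copper medians, over 3 sequences each, were 1.79 and 6.07. Scalings set on known sequences moved every log2 ratio by -2.56 to -3.53 between MS and MP and by -3.02 to -3.11 between PS and GP. Under all of them miR408 stayed higher in silk, with log2 ratios of at least 2.04 and 7.62, whereas miR398 in both comparisons and miR528 between MS and MP turned to negative values. For miR398 between PS and GP these were -2.65, -2.58 and -2.67 under TMM, median ratio and the total of known reads, past the limits in the other direction (exact binomial test with the scaled totals, p = 1.36e-05 at most).

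**Figure D3:**
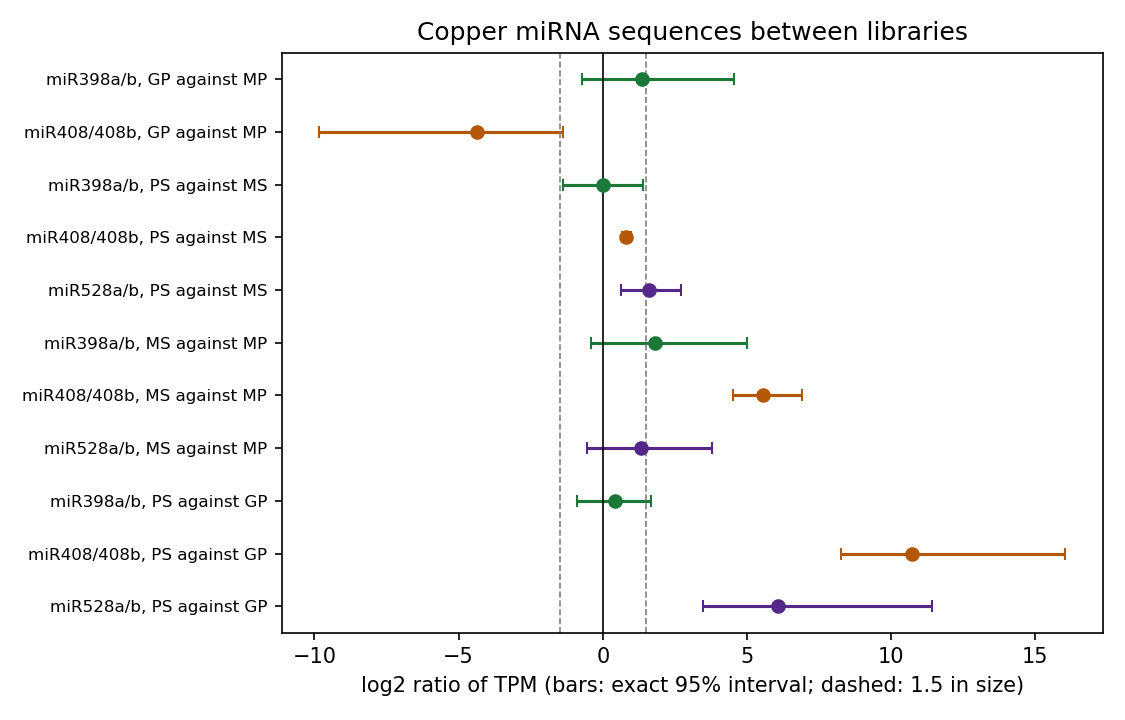
Log2 ratio of TPM between libraries for each copper sequence with a ratio, with exact 95% intervals as bars and dashed lines at 1.5 in size. The miR408 point lies at -4.35 for GP against MP and at 5.57 and 10.73 for silk against pollen, while every miR398 interval crosses 0.

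**Figure D4:**
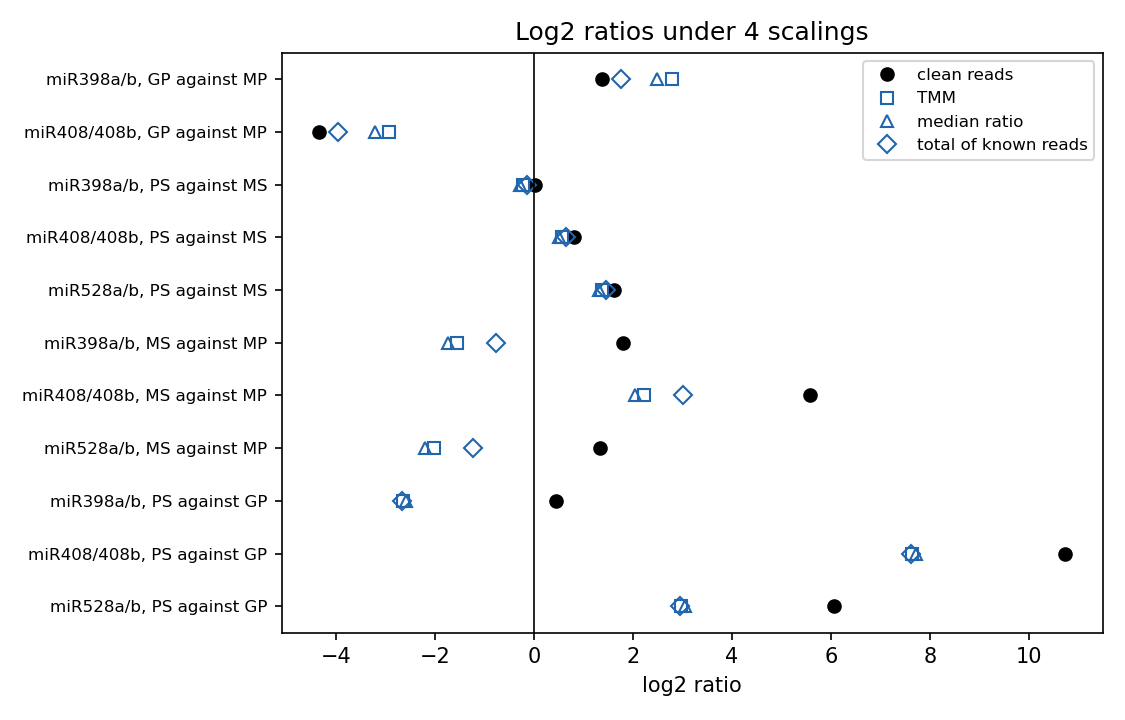
The same log2 ratios under scaling by clean reads (filled) and under TMM, median ratio and the total of known reads (open). All miR408 points keep their side of 0, while miR398 crosses 0 in the 3 comparisons with silk.

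For miR408 and miR528 the ratio of PS to GP was larger than that of MS to MP. GP was germinated in liquid medium and did not touch silk. The log2 ratio of PS to GP exceeded that of MS to MP by 5.16 for miR408 (exact conditional test on the reads, adjusted p = 8.61e-05) and by 4.73 for miR528 (exact conditional test, adjusted p = 0.0156). For miR398 the difference was -1.36 (adjusted p = 0.667). This difference passed an adjusted p of 0.05 in 2 of 3 copper sequences and in 21 of 45 known sequences (46.7%), of which 14 (31.1%) were larger in PS against GP. The same difference can be written as the log2 ratio of PS to MS minus that of GP to MP, which for miR408 were 0.81 and -4.35. In both copper sequences GP held 1 read, against 7 for miR408 and 3 for miR528 in MP.

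The copper sequences were then compared with each other, in 12 pairs of sequences by libraries. In each pair the library totals cancel, so the scaling does not enter. Adjusted over the 12 pairs, 5 passed 0.05 in Fisher's exact test. From MP to GP, the log2 ratios of miR398 and miR408 differed by 5.71 (1.63 to 11.30, exact test, adjusted p = 0.00216). From MP to MS, miR408 exceeded miR528 by 4.24 (1.47 to 6.56, adjusted p = 0.00526) and the log2 ratio of miR398 minus that of miR408 was -3.78 (-6.38 to -0.31, adjusted p = 0.0408). From GP to PS, the log2 ratio of miR398 differed from that of miR408 by -10.29 (-15.69 to -7.26, adjusted p = 8.36e-24) and from that of miR528 by -5.63 (-11.07 to -2.53, adjusted p = 6.19e-06).

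Between MS and PS, 0 of 3 copper pairs passed. miR408 minus miR528 was -0.80 on the log2 scale (-1.90 to 0.21, adjusted p = 0.159), miR398 minus miR528 was -1.60 (-3.35 to 0.16, adjusted p = 0.0934) and miR398 minus miR408 was -0.80 (-2.20 to 0.59, Fisher's exact test, adjusted p = 0.311). These intervals still allow differences of over 1.5 on the log2 scale, so like behaviour on pollination was not shown.

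Other miRNA families known to respond to mineral supply served as the nearest comparison, with miR395 acting on sulfate assimilation and miR399 and miR827 on phosphate. Across all comparisons 42 pairs with the copper sequences were tested and 22 passed after adjustment, 6 of 12 of them between MS and PS. The main miR395 sequence rose from 42 reads in MS to 324 in PS, a log2 ratio of 3.10. miR408 rose less than miR395 by a log2 difference of -2.29 (-2.81 to -1.79, Fisher's exact test, adjusted p = 1.47e-24), and miR528 differed from miR395 by -1.49 (-2.61 to -0.28, adjusted p = 0.0183). miR827, the phosphate miRNA with 5057 reads in MS and 10530 in PS, had a log2 ratio of 1.21. miR408 differed from it by -0.40 (-0.56 to -0.23, adjusted p = 1.12e-05), and for miR528 the difference of 0.40 (-0.59 to 1.49) did not pass (adjusted p = 0.647). The miR399e/i/j sequence had 83 reads in MS and 39 in PS, a log2 ratio of -0.94. Against it miR408 was higher by 1.75 (1.16 to 2.36, adjusted p = 4.15e-09) and miR528 by 2.55 (1.37 to 3.78, adjusted p = 1.05e-05). The miR399a/c/h sequence had 17 reads in MS and 20 in PS, a log2 ratio of 0.38. No copper sequence differed from it detectably (Fisher's exact test, adjusted p = 0.916 for miR398, 0.519 for miR408 and 0.156 for miR528).

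**Figure D5:**
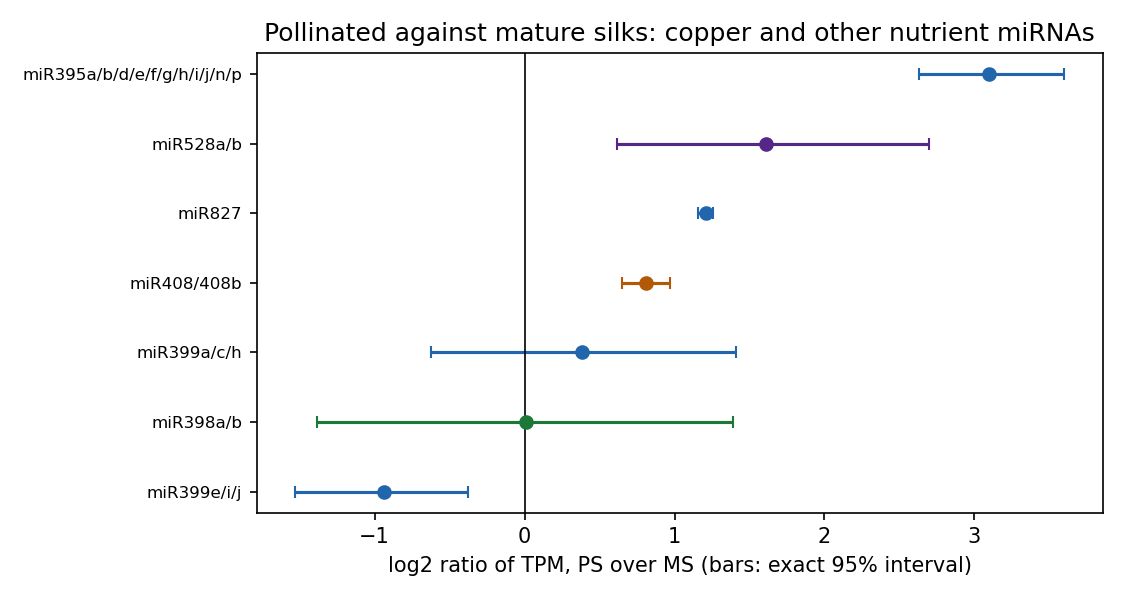
Log2 ratio of TPM, PS over MS, with exact 95% intervals, for copper sequences and for sequences of miR395, miR399 and miR827 that reached 10 reads in MS or PS. miR395 is highest at 3.10, miR528 at 1.61 and miR408 at 0.81 lie between, miR398 sits at 0.01 and miR399e/i/j at -0.94.

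In pollen the contrast was with miR399b, which had 0 reads in MP and 24 in GP. Its change from MP to GP differed from those of miR408 (7 and 1 reads, Fisher's exact test, adjusted p = 9.98e-06) and miR528 (3 and 1 reads, adjusted p = 0.00321), but not detectably from that of miR398 (2 and 15 reads, adjusted p = 0.240).

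The known sequences whose profile over the 4 libraries was most like that of each copper sequence were ranked by the root mean square difference of log2 TPM, centred on each sequence's own mean, among 45 others. miR408 was nearest to miR167e/f/g/h/i/j (0.466), which had 6, 1, 1063 and 1184 reads in MP, GP, MS and PS. Next came miR169a/b (0.716) and miR166j/k/n (0.727). miR528 was nearest to miR171a and miR171n (0.482 each), which had equal counts of 0, 0, 7 and 13 reads in MP, GP, MS and PS, followed by miR169p (0.721). miR398 was nearest to miR169i/j/k (0.772), miR529 (0.849) and the main miR156 sequence (0.856). No copper sequence was among the 3 nearest to another, their ranks for each other being 17 to 39. Ranks within other families were not computed for comparison, and the miR398 and miR528 profiles rest on 38 and 49 reads. These distances describe 4 libraries and carry no test.

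The deposited table lists target sites that the study predicted by sequence pairing, and no reads bear on them. For the copper miRNAs these were 20 gene identifiers with 30 transcript sites. Of the identifiers, 10 are annotated as copper proteins, 6 carry another annotation and 4 carry none. Among the copper proteins, GRMZM2G072780 has no annotation from the study and was classed by its RefSeq names. The other known miRNAs had 180 predicted target genes and shared 0 genes with the copper miRNAs. Sharing among the other families was not counted, so this 0 cannot be called particular to the copper miRNAs. Of the 180 genes, 2 are annotated as copper proteins, but only 127 carry an annotation from the study, against 15 of the 20. Positions below are those of the sites in transcripts of annotation release 5a.59.

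miR397b, with its single read, had the most copper targets. Its 7 genes included 6 laccase identifiers, with sites at 803 to 823 (GRMZM2G146152), 810 to 830 (GRMZM2G072808), 820 to 840 (GRMZM2G072780), 846 to 866 (GRMZM2G305526), 896 to 916 (GRMZM2G164467) and 1201 to 1221 (GRMZM2G447271). In the RefSeq gene table for assembly NAM-5.0, these identifiers matched 5 genes, because GRMZM2G072780 and GRMZM2G164467 are both listed under the laccase gene lac4. The remaining gene, GRMZM2G419994, is annotated as a wound-responsive family protein with a site at 871 to 891.

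miR408 had 4 predicted target genes, of which 3 encode blue copper proteins. The site in the plantacyanin gene GRMZM5G866053 lay at 8 to 28, and those in the uclacyanin genes GRMZM2G023847 and GRMZM2G097851 lay at 850 to 870 and 737 to 757. The other gene, GRMZM2G384327, encodes a protein with a SWAP domain and had sites in 4 transcripts.

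miR528 had 8 predicted target genes and 1 annotated copper protein among them, laccase 14 (GRMZM2G169033, the laccase gene lac3), with a site at 302 to 322. In 5 of the others the site lay at the same place, 93 to 113, although their annotations differ. These were GRMZM2G067974, GRMZM2G107469 and GRMZM2G701288 (threonine aldolase 2), GRMZM2G013761 (a DEAD box RNA helicase) and GRMZM2G082079 (no annotation). The remaining genes, GRMZM2G057519 and GRMZM2G008053, carry no annotation and had sites at 90 to 110 and 24 to 44. miR398 had 1 predicted target gene, GRMZM2G068519, without an annotation, with a site at 181 to 201 in 2 transcripts. None of the 20 genes is annotated as a superoxide dismutase, but 4 of them, the miR398 target included, carry no annotation.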

How the data were processed

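Small RNAs of 4 tissues were sequenced by Solexa from 1 library each. The authors removed adaptors and low-quality reads and mapped clean reads to B73 RefGen_v2 with SOAP. Structural RNAs (rRNA, tRNA, snoRNA) were discarded before the search against miRBase. The deposited counts are unscaled reads for each miRNA name, with length variants of up to 2 bp pooled by the authors, so reads of such variants are counted under the same name. The deposited TPM values are those counts per 1000000 clean reads of the library, not scaled by length. TPM recomputed from the counts differed from the deposited values by 0. The deposited p-values are the authors' own tests between libraries and were not read. Target sites in the table were predicted by the authors with Patscan.

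Names with the same mature sequence were counted once. Each comparison of libraries used Fisher's exact test (2-sided) of the reads of a sequence against all other clean reads, with exact (Clopper-Pearson) 95% intervals, and Benjamini-Hochberg adjustment over all distinct known sequences with reads in either library. Where a library had 0 reads, 3 reads took their place in the ratio as a floor. Ratios were left out if neither library exceeded 3 reads. The fold limits and the pollen p limit follow the study's methods. For PS against MS the same p limit was applied, and a silk count over 10 times that of GP or MP was required, with both pollen libraries required as an alternative. The pollen limits were used for silk against pollen. Pairs of sequences were tested on their 2 by 2 table of reads. Ratios of ratios were tested with the exact noncentral hypergeometric distribution. No spread between replicates could be fitted. edgeR 4.0.16 and DESeq2 1.42.0 (R 4.3.3) gave scaling factors only, and the rest ran in Python 3.11.15 with NumPy 2.4.6, SciPy 1.17.1 and Matplotlib 3.10.9. The tests were checked on simulated counts. Alternatives were other scalings, a chi-square test, 1 read added to each count, a minimum of 10 reads and an adjusted p limit. Under the other scalings, an exact binomial test with the scaled totals replaced Fisher's exact test between libraries.

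The text names all copper entries, the sequences of miR395, miR399 and miR827 with at least 10 reads in a comparison, the 3 known sequences nearest in profile to each copper sequence with at least 10 reads (1 read added to each count), and all predicted targets of the copper entries. The members, lists and tests were chosen with earlier results of these data known.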

Additional observations from a re-analysis of the deposited data

Results flagged for a closer look

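For miR408 the log2 ratio of PS to GP differed from that of MS to MP by 5.16 (10.73 against 5.57; exact conditional test, adjusted p = 8.61e-05). For miR528 the same difference was 4.73 (6.07 against 1.33; exact conditional test, adjusted p = 0.0156). These entries stand here because silk against pollen differed between the pair PS and GP and the pair MS and MP by a test of the difference itself. GP was germinated in liquid medium, away from silk. Under the other scalings, which were added after seeing the data, the difference was 4.61 to 5.67 for miR408 and 4.19 to 5.24 for miR528. PS held adhering pollen, and the part of this in the values was not tested. GP held 1 read of each sequence, and the miR528 counts of 1 in GP and 3 in MP did not pass Fisher's exact test (adjusted p = 0.138).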

How the results depend on the processing

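Between libraries, miR408 kept its direction in every alternative that included it. Its log2 ratios were -4.35 to -2.94 for GP against MP and 0.51 to 0.81 for PS against MS. For silk against pollen they were 2.04 to 5.57 (MS against MP) and 7.62 to 10.73 (PS against GP). The minimum of 10 reads left miR408 out of GP against MP. Scaling on known sequences moved all log2 ratios by 1.41 (TMM), 1.12 (median ratio) and 0.39 (total of known reads) for GP against MP, and by -0.25, -0.31 and -0.16 for PS against MS. In that order, miR398 turned to -0.23, -0.29 and -0.15 for PS against MS, to -1.57, -1.74 and -0.77 for MS against MP, and to -2.65, -2.58 and -2.67 for PS against GP. miR528 turned to -2.03, -2.20 and -1.23 for MS against MP. For GP against MP, miR408 lost its call under TMM (-2.94) and median ratio (-3.22), while miR398 gained one under TMM (2.78). miR528 lost its call for PS against MS under all 3 (1.36, 1.30 and 1.45) and for PS against GP under TMM (2.97) and the total of known reads (2.96). The number of copper sequences past the limits was 0 in place of 1 for GP against MP under median ratio and under a minimum of 10 reads, and 0 in place of 1 for PS against MS under all 3 scalings. Under TMM it stayed at 1 for GP against MP, but as miR398 higher. For PS against GP it stayed at 2 under TMM and the total of known reads, but as miR408 higher and miR398 lower, and was 3 under median ratio (miR408 and miR528 higher, miR398 lower). Of all known sequences, 2 were higher and 7 lower for GP against MP, 10 and 1 under TMM and 5 and 2 under median ratio. For PS against MS they were 6 and 4, and 4 and 4 under TMM. For MS against MP they were 32 and 1, and 12 and 5 under TMM, and for PS against GP 41 and 2, and 23 and 12 under TMM. With 3 reads added before ranking profiles, 2 of the 3 sequences nearest to miR408 were kept.

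No paired analysis was possible because each tissue had 1 library. The counts of miR397b, of miR398, and of all copper sequences in pollen were too low to resolve differences smaller than their intervals.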

Other observations

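The RefSeq gene table for assembly NAM-5.0 lists 8 precursor genes of these families, 7 of them matched by name to a mature entry analysed here. Of the 8, 5 lie within the span of another gene. MIR397a lies within GRMZM2G072808, a laccase gene that is itself a predicted target of miR397b, and the next gene is the laccase gene lac4, also a predicted target. No entry was named zma-miR397a, and the precursor sequence of MIR397a was not compared with miR397b. The gene table gives no strand. MIR398a, MIR398b and MIR408b lie within genes listed as long non-coding RNAs and MIR408a within a protein-coding gene. Outside the copper miRNAs, the 2 predicted targets annotated as copper proteins were the uclacyanin gene GRMZM2G008819 and the cupredoxin gene GRMZM2G045927, both of miR164.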
